A study of Mus musculus with 6 samples.

Results

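A set of 10 genes of small chromatin proteins was followed in germinal centre B cells: Anp32a, Anp32b and Anp32e of the acidic nuclear phosphoproteins, Set, and the high mobility group genes Hmgb1, Hmgb2, Hmgb3, Hmgn1, Hmgn2 and Hmga1. They were found by symbol, and all 10 were among the 23420 genes listed in each library and among the 10133 genes tested. The genes were picked by name and family after the KO minus WT values of these same libraries were known, and Anp32a and Hmgb2 were then already among the genes lower in KO. Their KO minus WT values are therefore given as a description, without a p-value, and nothing is supported with them.

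The libraries were messenger RNA of germinal centre B cells sorted from mouse spleen 10 days after NP-KLH, a hapten on a carrier protein, had been injected. The KO group had 3 libraries from BASP1 fl/fl mice with hCD20TamCre, whose Cre recombinase is made in B cells and needs tamoxifen to act. The WT group had 3 libraries from BASP1 +/+ mice, which carried the same Cre. Both groups received 1 mg of tamoxifen on days 5, 7 and 9, so the Cre and the drug were shared, and its name places the Cre in B cells in general, not in germinal centre cells alone. The labels give neither age nor sex, do not state whether libraries of 1 group came from separate mice, and give no meaning for shared replicate numbers.

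Values were log2 CPM, read counts scaled to a common library total, and how many reads lay behind each library cannot be seen from them. For every gene the sum of the KO and the WT value was the same for replicate numbers 1, 2 and 3 to within 0.001, so a gene holds a mean and 3 paired differences, and both groups have the same SD by construction. Every KO library therefore lies below every WT library exactly when all 3 paired differences are negative. The pair with the widest gap holds both the lowest and the highest library. Log ratios of 2 genes follow the same rule, so groups that do not overlap add nothing to 3 agreeing signs. Basp1 was at 7.27 to 9.65 CPM in KO libraries, against 44.8 to 59.5 CPM in WT libraries. All 13 listed germinal centre B cell genes reached 1 CPM in at least 1 library, and their summed level was 11506 to 11739 CPM in KO libraries and 12007 to 12265 CPM in WT libraries. Of the 10 T cell genes, 7 stayed under 1 CPM in every library (Cd3e, Cd3d, Cd3g, Cd4, Cd8a, Cd8b1 and Thy1), and the 10 summed to 341 to 345 CPM in KO and 328 to 333 CPM in WT. Most of that sum was Lck (228 CPM in KO, 194 CPM in WT) and Cd2 (113 CPM in KO, 136 CPM in WT), the 2 tested. They went opposite ways, both had an unadjusted limma p under 0.05, and neither passed 5% FDR. Under 1 CPM throughout were also 9 of 11 myeloid genes (summed level 2.31 to 5.78 CPM in KO and 3.52 to 7.12 CPM in WT) and 6 of 9 erythroid and platelet genes (2.15 to 3.71 CPM in KO and 1.37 to 2.44 CPM in WT). The 7 plasma cell genes summed to 2848 to 3031 CPM in KO and 2999 to 3192 CPM in WT. Of the 5 tested none passed 5% FDR and 3 had an unadjusted limma p under 0.05, as had 8.82% of all genes tested. The plasma cell drivers Irf4 and Prdm1 had differences of 0.54 ± 0.26 log2 units (SD over 3 pairs, as for every difference here; limma adjusted p = 0.0636) and 0.93 ± 0.56 (limma adjusted p = 0.256), while Igj, the joining chain, had one of -0.16 ± 0.20 (limma adjusted p = 0.331). The 7 listed nuclear non-coding RNAs, a sign of RNA quality, summed to 358, 267 and 467 CPM in KO 1, 2 and 3, against 466, 626 and 357 CPM in WT 1, 2 and 3.

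ANP32 proteins and SET carry long acidic tails that bind histones. ANP32A and SET were isolated as inhibitors of the phosphatase PP2A and as parts of a complex that shields histone tails from acetylation, and ANP32E takes the variant histone H2A.Z out of nucleosomes. HMGB proteins bend DNA through HMG boxes, and in developing lymphocytes HMGB1 and HMGB2 assist the RAG recombinase. HMGN proteins bind the nucleosome itself and loosen the hold of linker histone, and HMGA1 binds the minor groove of AT-rich DNA through AT-hooks. Germinal centre B cells divide fast, and several of these proteins, HMGB2 above all, are known for high levels in dividing cells.

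The stretches just before the transcription start of 4 of the genes are shown for the genes at both ends of the comparison: Anp32a and Hmgb2, which had the largest KO minus WT differences, Hmgb1, the close paralogue of Hmgb2, and Hmgn1, which had the smallest difference. Each is the 250 bases before a RefSeq start (GRCm38.p6), written 5′ to 3′ on the strand of the gene. Capitals mark CCAAT, the core of the box that the factor NF-Y binds, and TTTGAA, the core of the CHR element known from genes that peak late in the cell cycle, each on either strand.
Anp32a, chr9:62341093-62341342, plus strand: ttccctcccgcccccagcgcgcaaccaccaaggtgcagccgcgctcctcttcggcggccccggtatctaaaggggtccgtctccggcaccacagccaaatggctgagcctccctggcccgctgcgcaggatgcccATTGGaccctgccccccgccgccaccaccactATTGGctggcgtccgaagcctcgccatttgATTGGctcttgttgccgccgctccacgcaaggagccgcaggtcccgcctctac
Hmgb2, chr8:57511593-57511842, plus strand: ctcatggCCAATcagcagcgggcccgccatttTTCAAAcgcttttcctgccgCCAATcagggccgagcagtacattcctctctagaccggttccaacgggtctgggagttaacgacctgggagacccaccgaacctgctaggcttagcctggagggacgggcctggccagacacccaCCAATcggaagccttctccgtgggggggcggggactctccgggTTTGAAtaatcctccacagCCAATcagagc
Hmgb1, chr5:149053058-149053307, minus strand: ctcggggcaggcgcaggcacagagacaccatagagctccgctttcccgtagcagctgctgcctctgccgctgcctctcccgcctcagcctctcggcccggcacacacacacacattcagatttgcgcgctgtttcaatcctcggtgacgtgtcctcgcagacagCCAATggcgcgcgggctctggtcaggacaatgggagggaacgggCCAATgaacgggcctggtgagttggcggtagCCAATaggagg
Hmgn1, chr16:96127726-96127975, minus strand: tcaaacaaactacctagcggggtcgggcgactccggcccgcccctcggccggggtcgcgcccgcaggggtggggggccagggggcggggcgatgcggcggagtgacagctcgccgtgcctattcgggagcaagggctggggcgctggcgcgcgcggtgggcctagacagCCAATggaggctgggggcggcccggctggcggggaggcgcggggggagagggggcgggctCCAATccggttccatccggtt

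Anp32a held 3 CCAAT cores, all on the opposite strand, at positions -115 to -111, -83 to -79 and -53 to -49, counted from the base before the start as -1. Hmgb2 held 4 CCAAT cores, the nearest to the start at -11 to -7, and 2 CHR cores at -218 to -213 and -30 to -25. Hmgb1 held 3 CCAAT cores in this window, 0 in its other one and no CHR core, and Hmgn1 held 2 and none. All 10 genes had an entry among the RefSeq promoter windows, Set, Hmgb1 and Hmga1 with 2 windows each. At least 1 CCAAT core lay before 8 of the 10 genes, all but Hmgn2 and Hmga1, against 41.6% of the 7656 tested genes with an entry. At least 3 in 1 window lay before 5 of them, Anp32a, Anp32e, Hmgb1, Hmgb2 and Hmgb3, against 5.88% of those tested genes. A CHR core lay before 4, Anp32e, Set, Hmgb2 and Hmgb3, before 12.5% of the tested genes and in 16% of all 32851 windows. The E2F letters TTTCCCGC, TTTGGCGC, TTTCGCGC and TTTGCCGC were found before none of the 10, before 4.3% of the tested genes and in 1.86% of all windows. The GC box GGGCGG lay before 9 of the 10 genes, before 65.3% of the tested genes and in 32.7% of all windows. The ETS core CCGGAAG lay before 2 of the 10 genes, before 18.1% of the tested genes and in 6.91% of all windows. All motifs were read on both strands, and each motif was counted by itself, whether or not its letters overlapped those of another. A match is a description of these letters only. The windows of the 10 genes held 13 to 39 CpG dinucleotides, against a median of 16 in the windows of tested genes and of 6 in all windows.

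Per kilobase of exonic sequence, levels over the 6 libraries spanned from 1120 CPM per kilobase for Hmgn2 down to 1.66 for Hmga1. Hmgb2 came second at 850.6 CPM per kilobase, followed by Hmgn1 at 474.2, Anp32b at 427.2, Hmgb1 at 371.1, Anp32e at 288.6, Set at 164.4, Hmgb3 at 51.95 and Anp32a at 8.276. The ranges over the 6 libraries did not overlap between any neighbours in this order. The place of Hmgb1 depended on the length used: with the longest principal transcript instead of all exonic sequence it stood at 526.9 CPM per kilobase, above Hmgn1 at 474.2 and Anp32b at 427.2, while the other genes kept their order. Anp32a made up 0.843 to 1.02% of the ANP32 signal per kilobase in KO libraries and 1.28 to 1.55% in WT libraries, the rest being Anp32b and Anp32e. Hmgb2 made up 65.2 to 66.8% of the HMGB signal per kilobase in KO libraries and 66.7 to 68.3% in WT libraries, ranges that overlapped, and Hmgb3 made up 4.1 to 4.25% in KO and 3.92 to 4.06% in WT.

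**Figure D1:**
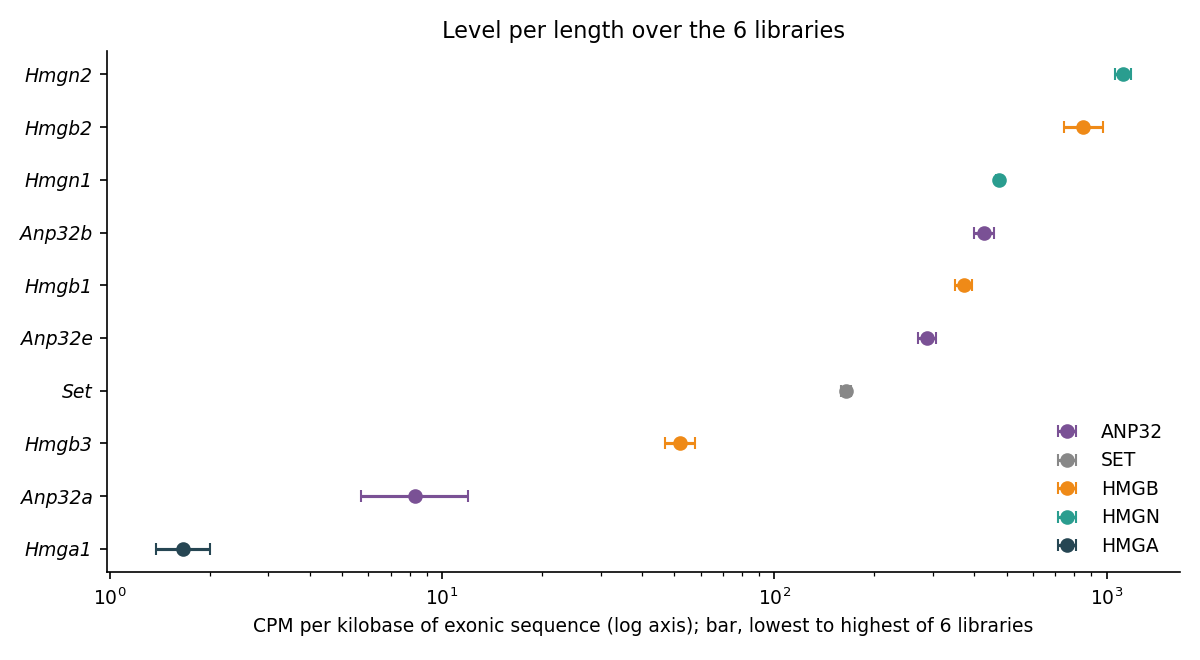
Level of each of the 10 genes in CPM per kilobase of exonic sequence on a log axis, ordered from the highest at the top. Points are geometric means over the 6 libraries and bars run from the lowest to the highest library: Hmgn2 and Hmgb2 lead at 1120 and 850.6 CPM per kilobase, and Anp32a (8.276) and Hmga1 (1.66) lie far below the rest.

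Several members have near-identical copies in the genome, which can take or lend reads depending on how reads with several matches were counted. The sources used here do not state that setting. At 95% identity or more over at least 100 bases, Hmgb1 matched transcripts of 45 other annotated genes, 44 of them pseudogenes, and Hmgn2 matched 12 others, which together covered 92.3% of its transcript. Set matched 6 others over 50.4% of its transcript, Hmgb2 matched 5 over 24.1%, Hmgn1 matched 4 over 13.4%, and Anp32a and Hmgb3 matched 1 each, over 16.9% and 34.6%. Anp32b and Anp32e matched none. The levels of Hmgb1, Hmgn2 and Set are for this reason less certain than those of Anp32b and Anp32e.

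All 10 genes had a negative mean KO minus WT difference, as did 48.6% of all genes tested, and 8 of the 10 differences were smaller than 0.2 log2 units. The median over the 10 was -0.113 on the log2 scale, against 0.004 over all 10133 genes tested. In 6 of the 10, Anp32a, Anp32b, Set, Hmgb1, Hmgb2 and Hmgn2, every KO library lay below every WT library, and the groups overlapped in the other 4, Anp32e, Hmgb3, Hmgn1 and Hmga1. Of all genes tested, 12.5% had every KO library below every WT library, and of the 3329 genes at or above 64 CPM it was 12%. At 5% FDR in limma over all genes, 2 of the 10 were called, Anp32a and Hmgb2, both lower in KO; 0.266% of all genes were called in either direction and 0.0987% lower in KO. Because the list was made with this contrast known, these shares stand beside the counts as background only. Together the 10 genes summed to 9147, 8690 and 8926 CPM in KO 1, 2 and 3, against 9504, 10022 and 9749 CPM in WT 1, 2 and 3, which is 0.869 to 0.917% of all listed CPM in KO and 0.951 to 1.003% in WT. In these bulk samples, fewer cells of a type and less RNA per cell cannot be told apart.

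**Figure D2:**
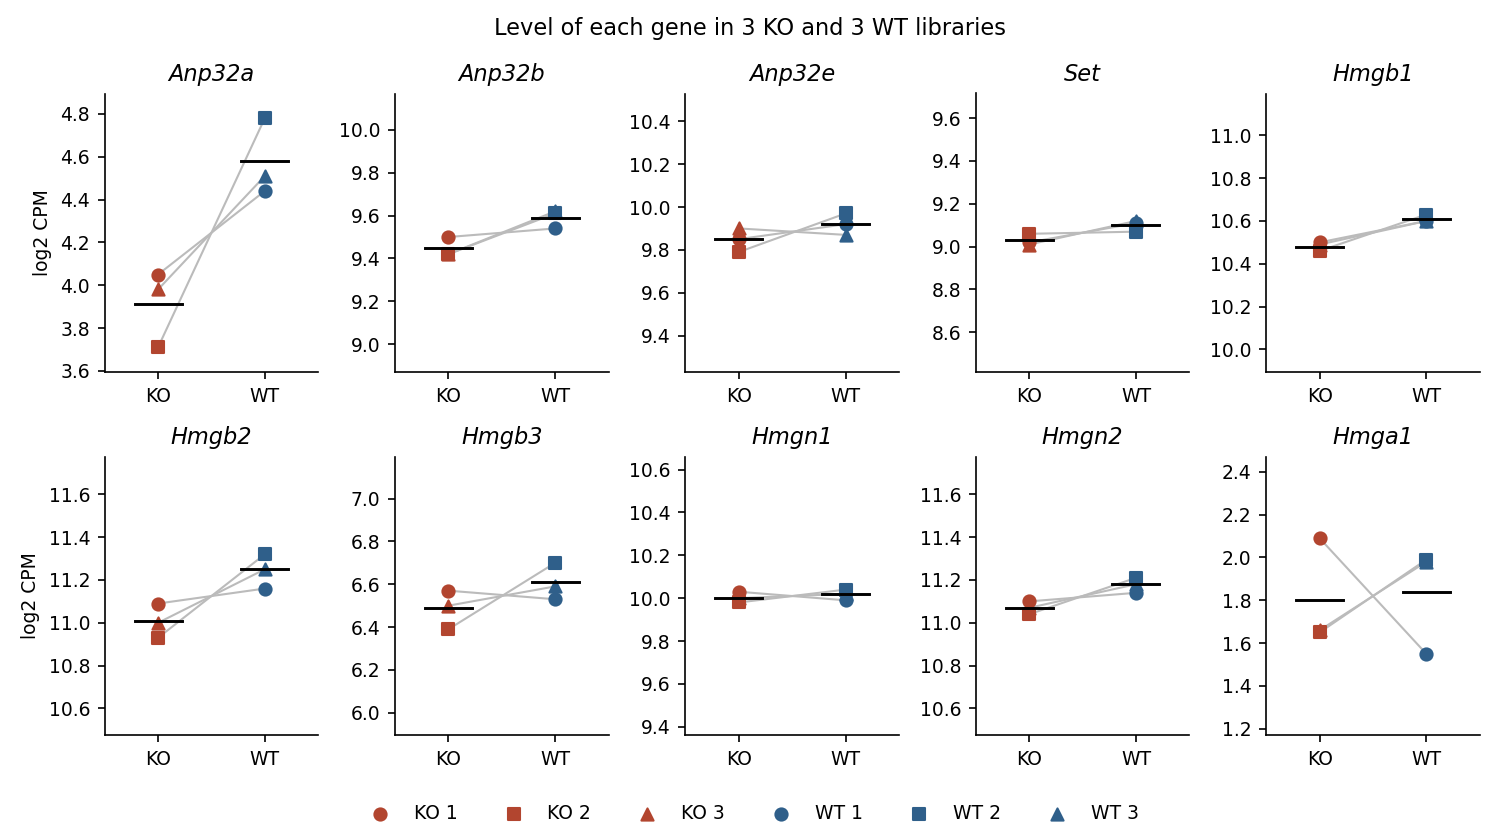
Level of each gene in log2 CPM, 1 panel per gene, with the 3 KO libraries left of the 3 WT libraries, grey lines joining the same replicate number and black bars at group means. Every panel spans the same 1.3 log2 units. The groups stand apart in 6 panels, widest for Anp32a (means of 3.91 in KO and 4.58 in WT), and cross in those of Anp32e, Hmgb3, Hmgn1 and Hmga1.

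Anp32a had the largest difference of the 10. Its gene lies on the plus strand of chromosome 9 from 62341293 to 62378812 (GRCm38). It was at 16.5, 13.1 and 15.7 CPM in KO 1, 2 and 3, against 21.7, 27.5 and 22.8 CPM in WT 1, 2 and 3. KO libraries were low throughout and the groups did not overlap, with the widest gap in pair 2. On the log2 scale the difference was -0.67 ± 0.36 (SD, n = 3 pairs), a KO level 0.63 times that of WT, and the pairs gave -0.395, -1.072 and -0.535. The pairs differed from each other more than is usual at this level: the median SD of the 1479 tested genes within 0.5 log2 units was 0.178. Without pair 2 the difference was -0.47 and the call was lost; it was also lost with the trend over transcript length removed, without the variance trend and without the replicate block, where the difference itself stayed at -0.67, and it was kept without pair 1 (-0.80) and without pair 3 (-0.73).

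Anp32b and Anp32e, the abundant members of the ANP32 family, differed by less. Anp32b, a histone chaperone, was at 723, 686 and 684 CPM in KO 1, 2 and 3, against 743, 783 and 786 CPM in WT 1, 2 and 3. Its groups did not overlap, although KO 1 came close to WT 1, and the difference was -0.14 ± 0.09 on the log2 scale. Anp32e, the H2A.Z chaperone, was at 920, 888 and 953 CPM in KO 1, 2 and 3, against 971, 1006 and 936 CPM in WT 1, 2 and 3. Here KO 3 was above WT 3 and the groups overlapped, with a difference of -0.08 ± 0.10. Relative to Anp32b per kilobase, Anp32a stood at -5.87, -6.13 and -5.86 log2 units in KO 1, 2 and 3, against -5.51, -5.25 and -5.52 in WT 1, 2 and 3. The gap between the paralogues was thus wider in KO than in WT for replicate numbers 1, 2 and 3.

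Set, the partner of ANP32A in the inhibition of PP2A and of histone acetylation, was at 521, 534 and 517 CPM in KO 1, 2 and 3, against 552, 538 and 556 CPM in WT 1, 2 and 3. All KO libraries were below all WT libraries, but KO 2 and WT 2 were only 0.009 log2 units apart. The difference was -0.07 ± 0.05 on the log2 scale, and Set was 1 of only 2 genes, with Anp32b, for which pair 2 did not give the lowest of the 3 differences.

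Hmgb2, the most abundant HMGB gene here per kilobase, had the second largest difference. It lies on the plus strand of chromosome 8 from 57511907 to 57515999 (GRCm38). It was at 2178, 1952 and 2049 CPM in KO 1, 2 and 3, against 2293, 2560 and 2439 CPM in WT 1, 2 and 3. The groups did not overlap, and the gap was again widest in pair 2. The difference was -0.24 ± 0.16 on the log2 scale, a KO level 0.848 times that of WT, with -0.074, -0.391 and -0.251 in the 3 pairs. The median SD of the 43 tested genes within 0.5 log2 units was 0.093. Its call was lost without pair 2 (-0.16) and without pair 3 (-0.23), and kept without pair 1 (-0.32). It was also lost with non-robust moderation, with the length trend removed, without the variance trend and without the replicate block, where the difference itself stayed at -0.24 or -0.25.

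Hmgb1, which besides its nuclear role acts as an alarm signal when released from cells, was at 1444, 1411 and 1442 CPM in KO 1, 2 and 3, against 1548, 1585 and 1551 CPM in WT 1, 2 and 3. The groups stood apart and the pairs were close to each other, at -0.100, -0.168 and -0.105, with a mean of -0.12 ± 0.04 on the log2 scale. Its SD of 0.038 was below the median of 0.087 of the 64 tested genes at a similar level, though many annotated copies share its sequence. Hmgb3, known from blood progenitors, was at 94.7, 84.0 and 90.8 CPM in KO 1, 2 and 3, against 92.3, 104 and 96.3 CPM in WT 1, 2 and 3. KO 1 lay above WT 1 and the groups overlapped, with a difference of -0.12 ± 0.17. The log2 ratio of Hmgb2 to Hmgb1 per kilobase was 1.21, 1.09 and 1.12 in KO 1, 2 and 3, against 1.18, 1.31 and 1.27 in WT 1, 2 and 3, and these ranges overlapped.

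The 2 HMGN genes separated. Hmgn2 was at 2201, 2106 and 2145 CPM in KO 1, 2 and 3, against 2263, 2366 and 2320 CPM in WT 1, 2 and 3. All KO libraries were below all WT libraries, by -0.11 ± 0.06 on the log2 scale. Hmgn1 was at 1044, 1013 and 1025 CPM in KO 1, 2 and 3, against 1018, 1050 and 1037 CPM in WT 1, 2 and 3. Its groups overlapped and the difference was -0.01 ± 0.04. Hmgn2 accordingly made up 69.4 to 69.7% of the HMGN signal per kilobase in KO libraries and 70.8 to 71.1% in WT libraries, ranges that did not overlap. These shares rest on Hmgn2 reads that its many copies could claim.

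Hmga1, an AT-hook protein of embryonic and transformed cells, was the least abundant member, at 4.26, 3.13 and 3.16 CPM in KO 1, 2 and 3, against 2.92, 3.98 and 3.94 CPM in WT 1, 2 and 3. KO 1 was above WT 1, the widest gap of the 3 pairs, while the other pairs went the opposite way. The difference was -0.04 ± 0.51 on the log2 scale, and its mean turned positive without pair 2 (0.11) and without pair 3 (0.10). No direction can be read from it at this level.

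**Figure D3:**
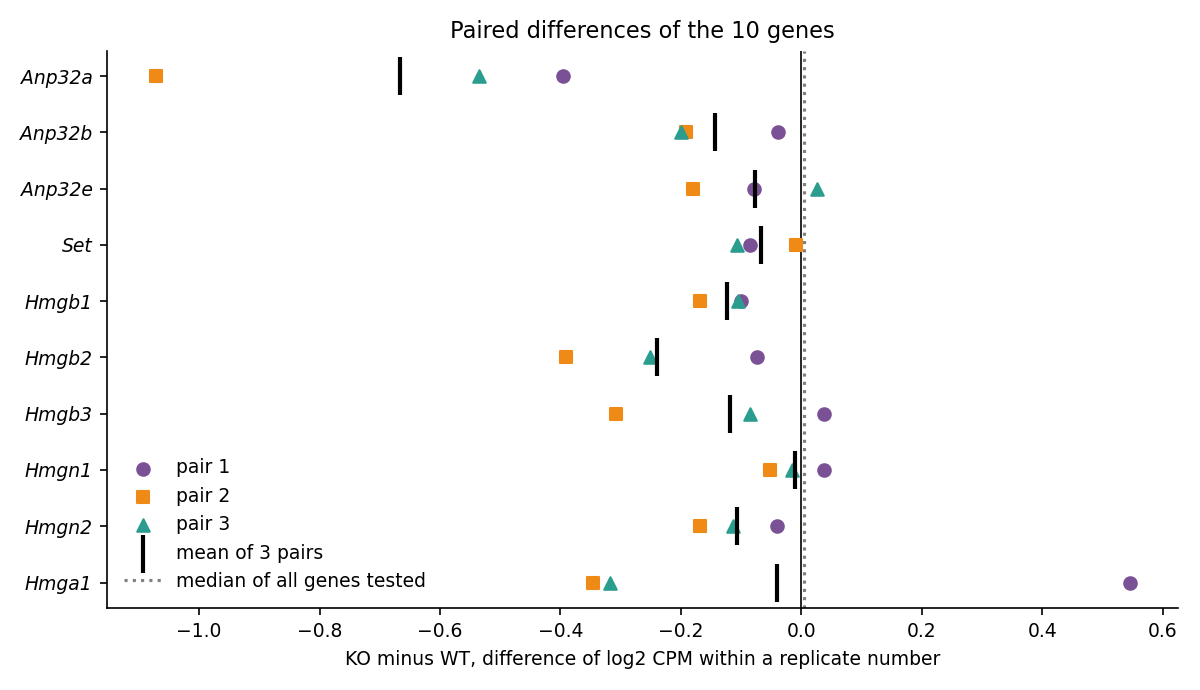
KO minus WT differences of log2 CPM for each gene, with 1 symbol per pair and a black bar at the mean of the 3 pairs; the dotted line is the median of all genes tested (0.004). Anp32a reaches -1.072 in pair 2, most other differences lie between -0.4 and 0.04, and Hmga1 has pair 1 at 0.545.

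Pair 2 gave the lowest of the 3 differences for 8 of the 10 genes. In pair 1, 7 of the 10 differences were below 0, in pair 2 all 10 and in pair 3 9 of the 10, and the medians over the 10 genes were -0.057, -0.185 and -0.110. Over all genes tested the medians were 0.003, 0.011 and 0.004. Pair 2 was also the pair with the lowest nuclear non-coding RNA in KO relative to WT, with a difference of -1.25 for Malat1, -0.38 in pair 1 and 0.38 in pair 3. Over 10083 genes with a known length, which are not independent replicates, the rank correlation of the paired difference with transcript length was -0.272, -0.0861 and 0.256 in pairs 1, 2 and 3. With that trend removed from each pair, the median over the 10 genes was -0.116. The part of RNA quality and of the germinal centre marker level in these differences was not tested. The genes whose 3 paired differences came closest to those of Anp32a were Cdk13 (root mean square distance 0.022 log2 units), Zc3h8 (0.136) and 1700094D03Rik (0.136), and the closest to Hmgb2 were 1810026B05Rik (0.026), Kctd18 (0.027) and Lrrc49 (0.030); likeness over 3 numbers is a description only.

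Other genes of the same pathways were looked at through lists drawn up by function, and none of the genes on them passed 5% FDR in limma in either direction. Of the 16 tested genes among other HMG-box, HMGN and HMGA genes, 8 had a negative difference and the median was -0.020, with 3 at an unadjusted limma p under 0.05, where 8.82% of all genes tested were under it. Hmgn3 (-0.06 ± 0.08) and Hmgn5 (-0.14 ± 0.16) were the tested HMGN relatives, whereas Hmga2 lay between -5.12 and -3.35 log2 CPM and Hmgb4 at the lowest common value of -5.06 in all 6. Tox2, an HMG-box factor of lymphocytes, had geometric means of 35.5 CPM in KO and 27.2 CPM in WT, a difference of 0.39 ± 0.19 (limma adjusted p = 0.0814), and Tox had one of 0.22 ± 0.19 (limma adjusted p = 0.396). Smarce1, an HMG-box subunit of the SWI/SNF remodeller, had a difference of -0.20 ± 0.17 (limma adjusted p = 0.383).

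For H2A.Z, which ANP32E removes from nucleosomes, and the machinery that exchanges it, 11 of 15 tested genes had a negative difference, with a median of -0.041 and 2 genes at an unadjusted p under 0.05. Among all genes tested, 48.6% had a negative difference and 8.82% were under that p. H2afz, the main H2A.Z gene, differed by -0.04 ± 0.10 and H2afv by 0.01 ± 0.14. H2afy, which encodes macroH2A, had 520 CPM in KO and 565 CPM in WT (-0.12 ± 0.05, limma adjusted p = 0.628). Ep400, the exchange ATPase, had a difference of -0.22 ± 0.34 (limma adjusted p = 0.528). Srcap, another such ATPase, was not analysed here.

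Histone chaperones, the wider class that ANP32 proteins and SET belong to, had 20 of 25 negative differences and a median of -0.061, with 7 genes at an unadjusted p under 0.05 and 6 with every KO library below every WT library. Of all genes tested, 48.6% had a negative difference, 8.82% were under that p and 12.5% had every KO library below every WT library. Ncl, which encodes nucleolin, had 748 CPM in KO and 859 CPM in WT (-0.20 ± 0.20, limma adjusted p = 0.236), and Atrx, a depositor of variant histone, had 62.7 CPM in KO and 77.9 CPM in WT (-0.31 ± 0.33, limma adjusted p = 0.215). Npm3 (0.40 ± 0.10, limma adjusted p = 0.284) and Tspyl1 (0.24 ± 0.18, limma adjusted p = 0.256) had positive differences in all 3 pairs. Among abundant acidic proteins outside the 10, Ptma, prothymosin alpha, differed by -0.04 ± 0.18 and Npm1, nucleophosmin, by 0.03 ± 0.12. Linker histones, with which HMGB and HMGN proteins compete for nucleosomes, had 4 of 7 negative differences and a median of -0.094, with 2 at an unadjusted p under 0.05. H1f0 differed by -0.19 ± 0.09 (limma adjusted p = 0.396) and H1fx by -0.45 ± 0.48 (limma adjusted p = 0.396), and the list median in pair 2 was -0.325, against -0.064 in pair 1 and -0.035 in pair 3.

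The phosphatase that ANP32A and SET inhibit had 9 of 20 PP2A genes with a negative difference and a median of 0.018, with 3 at an unadjusted p under 0.05. Over all genes tested, 48.6% had a negative difference and 8.82% were under that p. Ppp2r5a, a regulatory subunit, had a difference of -0.34 ± 0.37 (limma adjusted p = 0.292) and Ppme1, the PP2A methylesterase, one of 0.22 ± 0.14 (limma adjusted p = 0.505). Without pair 1, the PP2A genes Ppp2ca (-0.46), Ppp2r2d (-0.78) and Ppp2r5a (-0.55) passed 5% FDR (limma adjusted p = 0.000118, 0.00123 and 0.0221). With no filter on low values, Ppp2ca passed it too (-0.28, limma adjusted p = 0.0372). Among partners of SET and ANP32 proteins, 3 of 11 tested genes had a negative difference and the median was 0.067, with 2 at an unadjusted p under 0.05; the importin gene Kpna2 had 706 CPM in KO and 628 CPM in WT (0.17 ± 0.12, limma adjusted p = 0.331). Of the receptors and binding proteins of extracellular HMGB1, 6 of 10 were tested, 3 had a negative difference and 0 had an unadjusted p under 0.05. Tlr9, a sensor of DNA, lay at 1.29 CPM in KO and 0.878 CPM in WT (0.55 ± 0.44, limma adjusted p = 0.736), and Cd24a, which binds HMGB1, differed by -0.07 ± 0.04 (limma adjusted p = 0.819).

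Because HMGB2 and several ANP32 proteins are known from dividing cells, cell cycle genes were set beside them. Of 29 such genes, 16 had a negative difference, with a median of -0.024 and 1 at an unadjusted p under 0.05, and their summed level was 9546 to 9849 CPM in KO libraries and 9800 to 10157 CPM in WT libraries. Cenpe had 108 CPM in KO and 144 CPM in WT (-0.41 ± 0.43, limma adjusted p = 0.665), and Cenpf 60.9 CPM in KO and 76.4 CPM in WT (-0.33 ± 0.39, limma adjusted p = 0.38). Mki67, the proliferation marker, had 197 CPM in KO and 285 CPM in WT (-0.53 ± 0.48, limma adjusted p = 0.763), with -0.41, -1.06 and -0.12 in the 3 pairs. Some calls depended on the setting. Mki67 passed 5% FDR with non-robust moderation (limma adjusted p = 0.0427). Cenpe passed it with no filter on low values, without pair 1 and without pair 3 (limma adjusted p = 0.00124, 0.00929 and 0.0368). Cenpf passed it with no filter on low values and without pair 3 (limma adjusted p = 0.0498 and 0.00133). The median of the cell cycle list in pair 2 was -0.071, against -0.007 in pair 1 and 0.007 in pair 3, so it was lowest in the same pair as the median of the 10 genes. The 13 germinal centre B cell genes had 11 negative differences and a median of -0.085, with pair medians of -0.126, -0.084 and -0.032 and 3 genes at an unadjusted p under 0.05. Over all genes tested, 48.6% had a negative difference and 8.82% were under that p. The part of either list in the differences of the 10 genes was not tested.

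**Figure D4:**
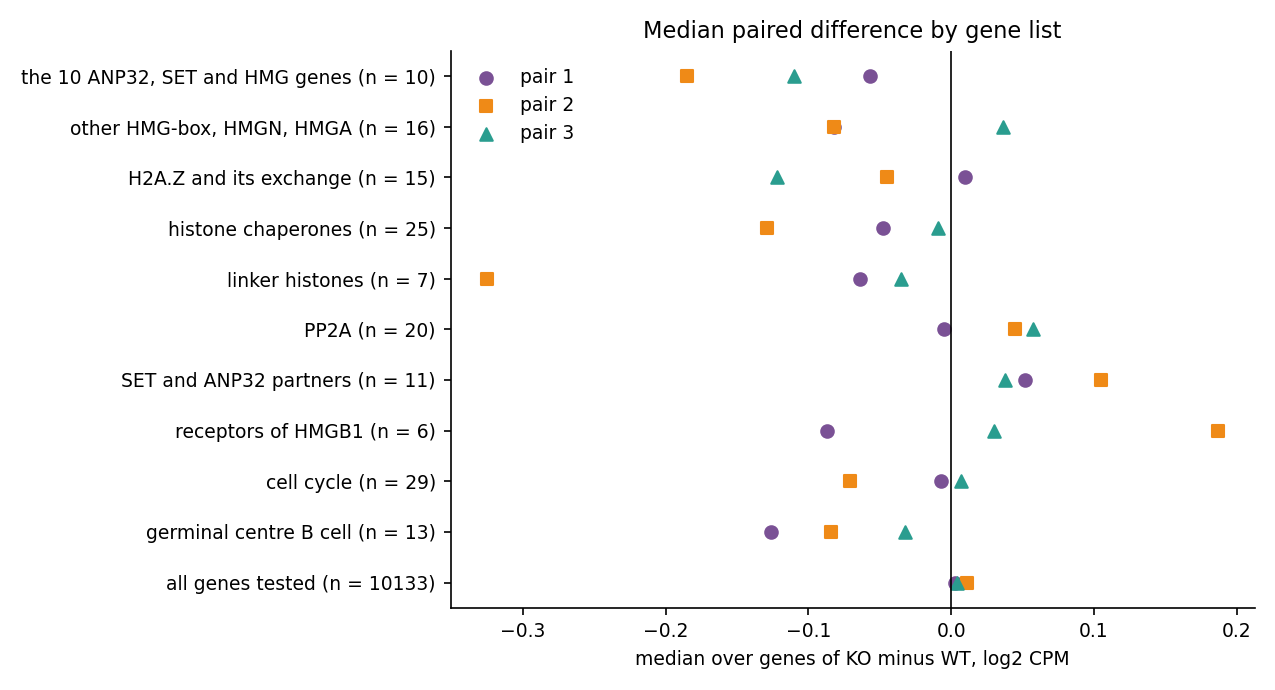
Median KO minus WT difference of log2 CPM over the tested genes of each list, with 1 symbol per pair and the number of tested genes in brackets. The 10 genes have medians of -0.057, -0.185 and -0.110 in pairs 1, 2 and 3, and the medians of all genes tested lie within 0.011 of 0; the median of linker histones in pair 2 is -0.325. The lists of nuclear RNAs and of other cell types are not drawn.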

How the data were processed

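The deposited values are log2 CPM, 1 per gene and library, made by the authors; that unit was read from the values, whose sums on the linear scale were 997617 to 1000513 in the 6 libraries. Build mm10, limma, featureCounts, Subread 2.0.1, STAR 2.6.1a, Trim Galore 0.6.5 and FastQC 0.11.7 are named, with no role, per the submitters' processing notes; settings and strandedness are not stated there. The scaling to a common total and the equal pair sums can shrink differences between libraries.

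The KO minus WT fit used limma 3.58.1 (R 4.3.3; genotype plus replicate number, variance trend, robust moderation, two-sided, Benjamini-Hochberg at 5% FDR) over the 10133 genes with a geometric mean of at least 1 CPM and unequal values. Blocking on the replicate number was retained because the deposited values hold no difference between numbers, which leaves 2 residual degrees of freedom per gene beside a median of 81.2 prior ones. Exonic lengths and positions came from GENCODE release M21 (GRCm38), copies from blastn 2.17.0 and promoter windows from RefSeq GRCm38.p6.

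The members, lists and tests were chosen with earlier results of these data known. Named genes are the 10 members, Basp1, per list up to 4 with the smallest p, and for Anp32a and Hmgb2 the 3 nearest. After values were seen, H2afz, H2afv, Hmgn3, Hmgn5, Hmga2, Hmgb4, Ptma and Npm1 were added for their roles. Ppp2ca was added for its calls under alternatives. Alternatives are given in the closing section.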

Additional observations from a re-analysis of the deposited data

How the results depend on the processing

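The sign of the members' mean differences held in 106 of 109 values over 11 alternatives. The exceptions were Hmgn1 without pair 2 and Hmga1 without pair 2 and without pair 3. With no replicate block, another filter on low values, no variance trend or non-robust moderation, a mean difference cannot change. Those values repeat the main ones, so only the other alternatives could alter a sign. The median over the 10 genes ranged from -0.168 to -0.086. The number of members called, 2 as reported, was 0 with no replicate block, 0 with the trend over transcript length removed, 0 with no variance trend, 1 with non-robust moderation, and 0 to 2 when a replicate pair was left out. The number of genes called over all genes, 27 as reported, was 142 with no replicate block, 95 with no filter on low values, 4 with the length trend removed (3 higher and 1 lower in KO, against 17 and 10), 0 with no variance trend, 12 with non-robust moderation, and 11 to 136 when a pair was left out. Of genes in the lists, 0 were called as reported, 3 with no replicate block, 5 with no filter, 1 with non-robust moderation, and 0 to 7 when a pair was left out. The cause of these changes was not tested, except that the fit with no replicate block counts degrees of freedom already used. The equal pair sums fix how same-numbered libraries deviate, so pairing by number could not be checked from the values. Read depth is unknown, so no limit from counting error can be given; precision is least for Hmga1 and Anp32a, the members of lowest level. The comparison of levels by the longest principal transcript, which moved Hmgb1 above Hmgn1 and Anp32b, was chosen after seeing the data.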
